A study of Homo sapiens with 4 samples.

Results

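The AIRE2 line was compared with the NC control line, 6 of the 12 arrays of the series. Both are stable derivatives of HEK293, an established human cell line from embryonic kidney. NC expressed yellow fluorescent protein (YFP) and AIRE2 expressed the autoimmune regulator AIRE, each from the human cytomegalovirus immediate-early promoter, which is active in most cell types. AIRE1, an independent line with the same AIRE transgene, and D312A, a line with AIRE carrying the D312A change, gave 3 arrays each. They entered the same fit, and AIRE1 was used to ask what its response does not share with AIRE2. The 3 arrays of a line came from separate experiments with 1 stable line. The p-values therefore measure the spread between arrays that is left after line and replicate number are fitted, pooled over all lines. They do not measure a spread between clones, and an AIRE effect and a difference between clones cannot be told apart.

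AIRE is a nuclear protein of the medullary epithelium of the thymus, where it turns on many genes that are otherwise expressed only in particular tissues, so that developing T cells meet these antigens. It has no DNA sequence motif that fixes its targets; it binds unmodified histone H3 tails through a PHD finger and acts with partners that release paused RNA polymerase. Which genes respond to it is known to vary between cells. HEK293 cells are not thymic cells and do not normally use AIRE.

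The AIRE transcript was examined first. On the log2 scale of normalised intensity its probe stood at 4.36, 4.55 and 4.40 on NC arrays 1 to 3, where it was not well above background, and at 8.70, 8.04 and 8.78 on the AIRE2 arrays. AIRE was at least 11.9-fold higher in AIRE2 than in NC (limma adjusted p = 1.58e-08). The AIRE1 arrays lay at 9.03, 8.65 and 9.01 and overlapped those of AIRE2, and the difference of -0.39 ± 0.14 log2 (SE, n = 3) between the clones was not called (adjusted p = 0.0957). The other probe for AIRE on the array was detected in no line.

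Mean intensity lay between 245.6 and 316.2 on the NC and AIRE2 arrays, and 15823 to 16680 of 48701 probes were detected on each. Of 17 HEK293 markers on the array, among them the kidney gene LHX1 and the neurofilament gene NEFM, 15 were detected on all NC arrays and 14 on all AIRE2 arrays, while PAX2, a regulator of kidney development, was detected on none. Their summed log2 level was 14.42 to 14.65 in NC and 14.02 to 14.42 in AIRE2. Of 14 leukocyte markers, CD8A was detected on all AIRE2 arrays and the other 13 on none, and 0 on an NC array; the summed log2 level of the list was 8.35 to 8.39 in AIRE2 and 8.22 to 8.28 in NC. Of 14 markers of fibroblasts and endothelium, 4 were detected on all AIRE2 arrays and 2 on all NC arrays, with overlapping summed levels of 8.73 to 9.25 and 8.66 to 9.03. The part of these markers in the results was not tested.

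Against NC, 1692 of 11947 genes were higher in AIRE2 (14.2%) and 1490 were lower (12.5%) at an adjusted p under 0.05. Against NC, AIRE1 had 1507 higher (12.6%) and 1217 lower (10.2%) and D312A 1042 higher (8.72%) and 925 lower (7.74%). These counts share the NC arrays. The clones were also compared with each other: 698 genes were higher in AIRE2 than in AIRE1 (5.84%) and 895 lower (7.49%). Genes called in the same direction against both NC and AIRE1 are described here as apart in AIRE2. There were 274 apart and higher (2.29%), with a median difference of 0.61 log2 from NC, and 530 apart and lower (4.44%), with a median of -0.39. A difference of 1 log2 or more from both lines was found for 12 of the higher and 3 of the lower genes. The term apart leaves D312A aside. AIRE2 was also called in the same direction against D312A for 177 of the 274 higher and 320 of the 530 lower genes, and D312A itself was called in that direction against NC for 97 (35.4%) and 116 (21.9%). AIRE1 was called in that direction against NC for 88 (32.1%) and 36 (6.79%). These contrasts share arrays with those that define the genes, so the counts are a description.

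Replicate numbers paired the arrays and entered the fit; without them 709 and 421 genes were called against NC, 122 and 153 against AIRE1, and 58 and 74 stood apart. When arrays were only centred on their medians, 78.2% of the calls against NC were increases rather than 53.2%, 30.8% of those against AIRE1 rather than 43.8%, and 47.7% of the apart genes rather than 34.1%. That centring moved the median of all genes from -0.00 to 0.06 log2 against NC and from 0.01 to -0.06 against AIRE1, and it left 94 apart and higher and 103 apart and lower. Without AIRE1 replicate 1 the apart counts were 134 and 288, without AIRE1 replicate 3 they were 147 and 318, and without AIRE2 replicate 3 they were 161 and 315. Without AIRE2 replicate 1 the higher count was 177, and without NC replicate 1 the lower count was 343.

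Genes apart and higher were ranked by the smaller of their differences from NC and from AIRE1. CSRP1, first in that order and a LIM-domain protein that binds actin filaments, stood at 5.07, 4.90 and 4.56 log2 in NC, 5.41, 5.75 and 5.57 in AIRE1, 6.74, 7.02 and 6.36 in D312A and 7.31, 8.23 and 7.29 in AIRE2. All AIRE2 arrays lay above those of the other lines, and those of D312A lay between. The differences were 2.76 ± 0.17 log2 from NC and 2.04 ± 0.17 from AIRE1 (SE, n = 3; limma adjusted p = 4.59e-07 and 3.52e-05), and D312A exceeded NC by 1.86 (adjusted p = 2.39e-05). CD44, the main cell surface receptor for hyaluronan, stood at 6.25, 6.18 and 6.63 in NC, 7.11, 6.70 and 6.83 in AIRE1 and 9.23, 8.32 and 9.01 in AIRE2. Again no AIRE2 array overlapped those of NC or AIRE1, and CD44 was higher by 2.50 ± 0.15 and 1.97 ± 0.15 (adjusted p = 4.85e-07 and 2.53e-05).

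EPCAM, an epithelial adhesion molecule, stood at 5.74, 5.30 and 5.88 log2 in NC, 6.64, 6.59 and 6.73 in AIRE1, 7.49, 7.05 and 7.41 in D312A and 8.82, 7.96 and 8.42 in AIRE2. AIRE2 exceeded NC by 2.76 ± 0.13, AIRE1 by 1.74 ± 0.13 and D312A by 1.08 (adjusted p = 7.31e-08, 1.41e-05 and 0.000319). PCDH19, a protocadherin of neural cell adhesion, stood at 7.13, 6.78 and 6.89 in AIRE2, above 5.36, 5.65 and 5.33 in NC and 5.69, 5.40 and 5.75 in AIRE1. Its differences were 1.48 ± 0.13 and 1.32 ± 0.13 (adjusted p = 1.02e-05 and 0.000128), whereas AIRE1 and D312A differed from NC by 0.17 and -0.06 (adjusted p = 0.394 and 0.811).

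Several further genes apart and higher encode enzymes and signalling proteins. SYT13, a synaptotagmin of membrane traffic, stood at 6.70, 6.60 and 6.82 log2 in AIRE2 and 5.64, 5.66 and 5.65 in AIRE1 and was not detected in NC, which it exceeded at least 3.41-fold (adjusted p = 7.31e-08). TSC22D3, known as a glucocorticoid-induced leucine zipper protein, stood at 9.96, 8.37 and 9.55 in AIRE2 and at 8.28, 7.31 and 8.12 in NC. Its lowest AIRE2 value was just above the highest NC and AIRE1 values, and the differences were 1.39 ± 0.20 and 1.18 ± 0.20 (adjusted p = 0.000355 and 0.00286). The sulfotransferase gene CHST13, of chondroitin synthesis, was higher by 1.60 and 1.10 and in D312A by 1.27 over NC, with AIRE2 and D312A not called apart (adjusted p = 0.0914). Differences from NC and AIRE1 were 1.44 and 1.08 for the fatty acid amide hydrolase gene FAAH2, and DGKA, a diacylglycerol kinase, was higher by 1.01 over NC and at least 1.865-fold over AIRE1. The chemokine gene CCL8 stood at 6.89, 5.29 and 6.74 in AIRE2, and its replicate 2 lay within the AIRE1 range of 5.10 to 5.52. Its difference of 0.999 ± 0.28 from AIRE1 (adjusted p = 0.0358) was lost when any of 6 arrays was left out, namely NC replicate 1, AIRE1 replicates 1, 2 and 3, and AIRE2 replicates 1 and 3.

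IFI16, a sensor of nuclear DNA induced by interferon, had the largest increase over NC after AIRE. It stood at 4.41, 4.40 and 4.45 log2 in NC, where it was not detected, 6.77, 6.21 and 6.74 in AIRE1 and 8.14, 6.92 and 7.62 in AIRE2. IFI16 was at least 6.15-fold higher in AIRE2 than in NC (adjusted p = 2.38e-07) and 0.98 ± 0.17 log2 higher than in AIRE1 (adjusted p = 0.00347). In D312A it differed from NC by 0.39 (adjusted p = 0.152). Of the 15 genes that led this order, 11 were also called against both lines without the replicate number. COL21A1, TSC22D3, CCL8 and IFI16 were not called against AIRE1 in that fit, with adjusted p = 0.0939, 0.119, 0.167 and 0.0882.

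**Figure D1:**
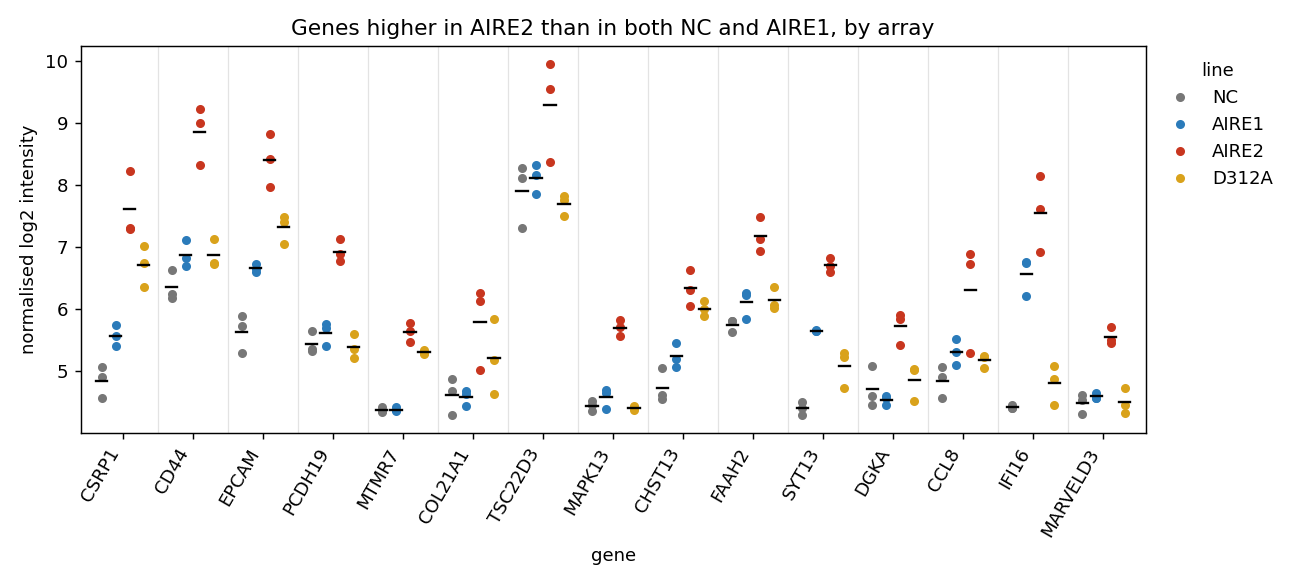
Normalised log2 intensity on each array (dots, 3 per line) and line mean (bar) for the 15 genes with the largest differences among those higher in AIRE2 than in both NC and AIRE1. The AIRE2 dots lie above the NC and AIRE1 dots for each gene except CCL8, whose replicate 2 value of 5.29 lies among the AIRE1 values.

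There were 12 genes detected on all AIRE2 arrays and on no NC or AIRE1 array. That choice makes them higher in AIRE2, so their values are given as a description. All 12 belong to the 274 above, of which 26 passed the detection filter through AIRE2 alone. MAPK13, the delta isoform of p38 kinase, stood at 5.57, 5.82 and 5.71 log2 in AIRE2 and at 4.36 to 4.69 on the NC and AIRE1 arrays. The increase over NC was at least 1.70-fold and that over AIRE1 at least 1.84-fold, and D312A did not detect it. For MARVELD3, a tight junction protein, these bounds were 1.53-fold and 1.66-fold, for the homeobox gene IRX6 1.52-fold and 1.65-fold, and for the laminin chain gene LAMB3 1.17-fold and 1.26-fold. The collagen gene COL21A1, with bounds of 1.82-fold and 1.97-fold, was detected on 2 D312A arrays.

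The others in this group were MTMR7, a myotubularin-related phosphatase, CPNE4, a calcium-dependent membrane-binding protein, S100A3 of the S100 calcium-binding family, TAF7L, a germ cell subunit of the general transcription factor TFIID, P2RX7, an ATP-gated ion channel, CXorf58 and the keratin pseudogene KRT18P48, whose probe may read KRT18. Of the 12 genes, 8 were undetected on all D312A arrays too, while MTMR7 was detected on all of them, at 5.30, 5.27 and 5.34 log2, against 5.77, 5.46 and 5.65 in AIRE2. When arrays were not paired, CPNE4, CXorf58, P2RX7 and COL21A1 were not called against AIRE1 (adjusted p = 0.0693, 0.0549, 0.0714 and 0.0939), nor CXorf58 and P2RX7 against NC (0.0645 and 0.127).

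Promoters of this group are shown because these genes were detected in AIRE2 and in neither NC nor AIRE1. RefSeq promoter sequence of GRCh38.p14, 250 bases before and 50 after the annotated start, was matched for 8 of the 12 genes. Their count of CG dinucleotides ranged from 0 in CPNE4 to 46 in MAPK13, with a median of 9.5 against 26 over the promoters of 9593 tested genes. The letters TATAAA, on either strand, were in 0 of these 8 promoters and in 5.79% of the 9593. Below are the extremes and COL21A1, which has 14, with each CG in capitals.
MAPK13 (chr6:36130263-36130562, plus strand): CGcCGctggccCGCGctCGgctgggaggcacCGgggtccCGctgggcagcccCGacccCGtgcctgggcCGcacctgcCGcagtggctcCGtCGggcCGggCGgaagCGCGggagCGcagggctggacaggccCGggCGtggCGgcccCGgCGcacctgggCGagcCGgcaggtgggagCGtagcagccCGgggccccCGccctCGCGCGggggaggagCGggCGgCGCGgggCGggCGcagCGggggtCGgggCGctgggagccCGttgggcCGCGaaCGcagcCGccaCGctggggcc
COL21A1 (chr6:56247531-56247830, minus strand): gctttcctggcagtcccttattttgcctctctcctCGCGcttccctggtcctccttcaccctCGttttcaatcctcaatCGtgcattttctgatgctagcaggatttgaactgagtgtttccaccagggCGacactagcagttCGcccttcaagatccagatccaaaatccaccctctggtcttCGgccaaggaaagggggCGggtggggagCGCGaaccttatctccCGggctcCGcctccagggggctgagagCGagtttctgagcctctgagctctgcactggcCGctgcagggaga
CPNE4 (chr3:132039557-132039856, minus strand): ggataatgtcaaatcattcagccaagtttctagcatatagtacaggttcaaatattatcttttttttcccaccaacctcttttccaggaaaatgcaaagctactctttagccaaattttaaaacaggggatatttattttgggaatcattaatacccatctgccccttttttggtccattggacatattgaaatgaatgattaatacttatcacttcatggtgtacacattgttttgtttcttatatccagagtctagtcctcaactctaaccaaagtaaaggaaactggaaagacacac
The promoters thus spanned CG-rich and CG-free sequence, and the array does not show which start site was used.

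Among genes apart and lower, a few fell far. KLHL4, a kelch-repeat gene on the X chromosome, stood at 7.31, 6.80 and 6.77 log2 in NC, 7.64, 6.88 and 7.53 in AIRE1 and 5.11, 5.05 and 4.93 in AIRE2. The AIRE2 arrays lay below all of these, by 1.93 ± 0.14 against NC (adjusted p = 2.48e-06) and 2.32 ± 0.14 against AIRE1 (adjusted p = 4.46e-06). D312A did not detect it. HAS2, a hyaluronan synthase and thus the maker of the CD44 ligand, stood at 8.05, 7.78 and 7.70 in NC, 7.55, 7.32 and 7.38 in AIRE1, and 5.56, 5.75 and 5.61 in AIRE2. HAS2 fell by 2.20 ± 0.10 against NC and by 1.77 ± 0.10 against AIRE1 (adjusted p = 8.48e-08 and 2.8e-06), without overlap.

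TNC, the matrix glycoprotein tenascin C, stood at 10.99, 10.25 and 10.89 in NC, 9.48, 8.94 and 10.13 in AIRE1 and 8.79, 8.07 and 9.06 in AIRE2. It fell by 2.07 ± 0.12 against NC (adjusted p = 4.41e-07); its range overlapped that of AIRE1, and the difference of -0.88 ± 0.12 (adjusted p = 0.00115) was not called without the replicate number (adjusted p = 0.327). PLAGL1, an imprinted zinc finger regulator of the cell cycle, stood at 6.01, 5.91 and 6.31 in NC and 6.16, 5.93 and 5.96 in AIRE1 and was not detected in AIRE2. It was at least 2.28-fold lower than in NC and 2.18-fold lower than in AIRE1 (adjusted p = 3.25e-06 and 3.52e-05). D312A kept it at 5.98, 6.21 and 6.16. GARIN1B and the pseudogene FAM220BP were also apart and lower and undetected in AIRE2 while detected on all NC and AIRE1 arrays; GARIN1B was not called in either contrast, and FAM220BP not against NC, without the replicate number (adjusted p = 0.066, 0.116 and 0.0687).

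The carbonic anhydrase gene CA2 fell by 1.42 ± 0.11 log2 against NC and 0.81 ± 0.11 against AIRE1 (adjusted p = 2.59e-06 and 0.000839). ENDOG, a mitochondrial endonuclease, fell by 1.26 ± 0.09 and 0.91 ± 0.09 (adjusted p = 2.59e-06 and 0.000157). The remaining genes of the 15 with the largest differences were closer to NC, between -0.61 and -1.12. They were the kinases ITPKA, of inositol phosphates, and MAPK12, the gamma isoform of p38, the elongation factor ELL3, the ubiquitin ligase HERC2, the origin recognition factor LRWD1, HAGHL, the polymerase subunit POLR2M, CABCOCO1 and the unplaced LOC643438. HERC2 has near-identical copies in the genome, and its probe may read them. Of the 15 genes, 9 were also called against both lines without the replicate number. TNC, LOC643438, MAPK12, LRWD1, HAGHL and CABCOCO1 were then not called against AIRE1, with adjusted p = 0.327, 0.212, 0.144, 0.0842, 0.0732 and 0.489, and LOC643438, MAPK12 and CABCOCO1 not against NC either (adjusted p = 0.143, 0.072 and 0.245). The AIRE2 arrays of LOC643438 and CABCOCO1 overlapped those of both lines, and the AIRE2 arrays of MAPK12 overlapped those of NC. The difference of -0.61 for CABCOCO1 was also lost without any one of AIRE1 replicates 1, 2 and 3 and AIRE2 replicate 2.

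**Figure D2:**
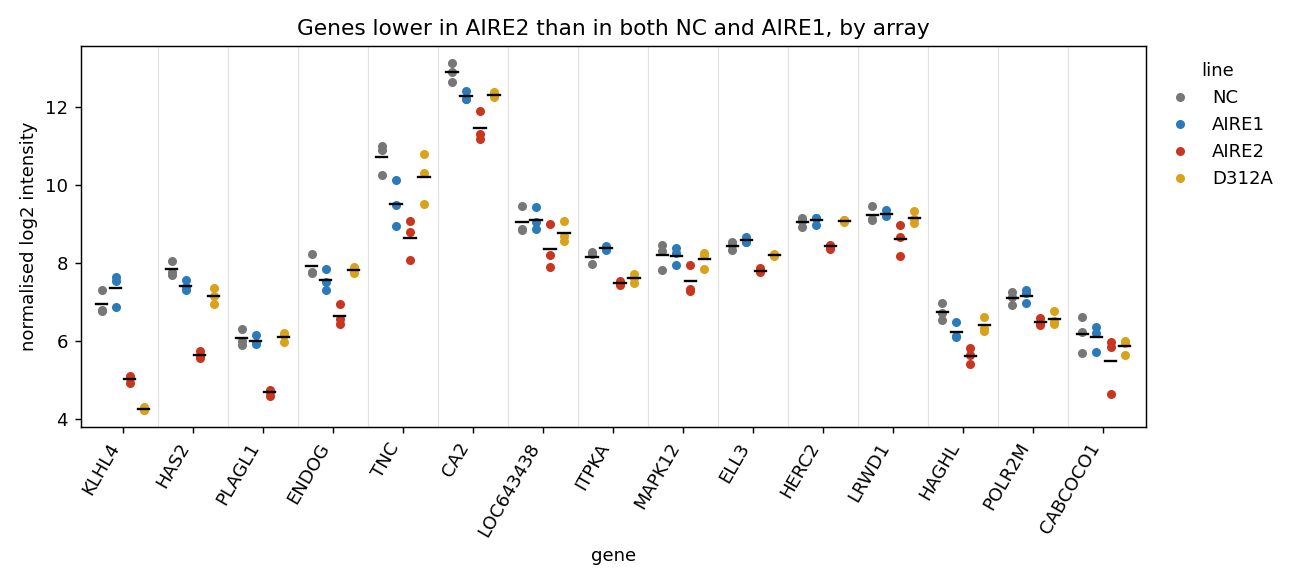
Normalised log2 intensity on each array (dots, 3 per line) and line mean (bar) for the 15 genes with the largest differences among those lower in AIRE2 than in both NC and AIRE1. HAS2 at 5.56 to 5.75 and PLAGL1 at 4.60 to 4.76 in AIRE2 lie below the dots of the other lines, and KLHL4 is lower still in D312A.

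The genes apart and lower were not spread evenly over the genome. Of 544 tested genes on chromosome 7, 192 were apart and lower (35.3%), of 394 on chromosome 15 there were 130 (33.0%), and of 281 on chromosome 22 there were 49 (17.4%). Chromosomes 9 and 6 followed with 41 of 501 (8.18%) and 51 of 664 (7.68%). On each other chromosome the share was at most 1.27%, so that chromosomes 7, 15 and 22 held 371 of the 521 apart and lower genes with a known place (71.2%). These counts moved with the fit more than the share did: 52 of 74 without the replicate number (70.3%) and 63 of 101 with median centring (62.4%). They were 245 of 340 without NC replicate 1, 208 of 286 and 235 of 314 without AIRE1 replicates 1 and 3, 219 of 309 without AIRE2 replicate 3, and 247 of 363 without the second replicate of every line. On chromosome 22 alone, 2 genes were left without the replicate number and 8 with median centring. Genes apart and higher were few there, with 4 of 1219 (0.328%) on these 3 chromosomes and 266 of 10567 (2.52%) on the others. The X chromosome had the highest share of those, 23 of 422 (5.45%).

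**Figure D3:**
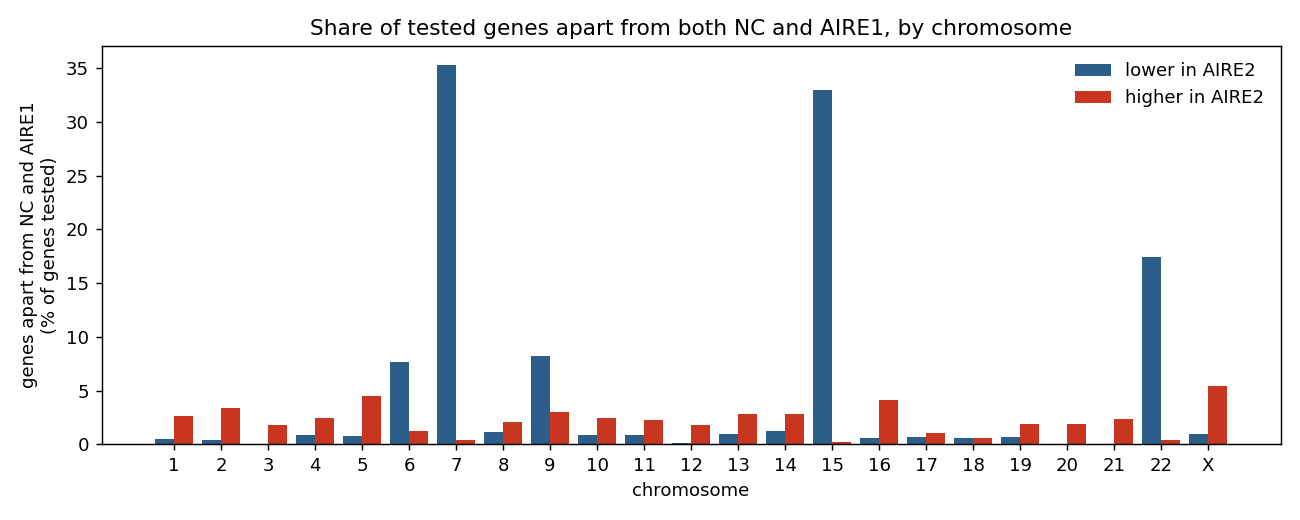
Percent of tested genes on each chromosome that were lower (blue bars) or higher (red bars) in AIRE2 than in both NC and AIRE1. The blue bars reach 35.3% on chromosome 7, 33.0% on chromosome 15 and 17.4% on chromosome 22.

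The change on these chromosomes was small per gene and broad. The median difference between AIRE2 and NC was -0.27 log2 over the genes of chromosome 7, -0.24 on chromosome 15 and -0.18 on chromosome 22. It was 0.02 over the genes of all other chromosomes, which also hold stretches that moved against NC in AIRE1 and D312A too, given below. On chromosome 7, 86.2% of genes were below 0, on chromosome 15 84.0%, and on chromosome 22 81.5%, against 46.2% elsewhere. Each pair of arrays gave much the same value: -0.29, -0.26 and -0.26 for chromosome 7 in replicates 1 to 3, -0.24, -0.25 and -0.26 for chromosome 15, and -0.18, -0.18 and -0.19 for chromosome 22. Against AIRE1 the medians were -0.30, -0.26 and -0.20. AIRE1 itself differed from NC by medians of 0.03, 0.03 and 0.01.

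Gene order along the chromosomes was taken from the RefSeq table of GRCh38.p14 and tested genes were read in blocks of 20 neighbours. Runs of 3 or more blocks with a median below -0.05 against both NC and AIRE1 covered chromosomes 7 and 15 from the first tested gene to the last, and chromosome 22 in 14 of its 15 blocks. On chromosome 6 such runs went from COL21A1 to LATS1 and from TIAM2 to PDCD2, and on chromosome 9 from RBM18 to ASB6 and from RAPGEF1 to EHMT1. No other chromosome had one. These 7 runs held 1662 of 11786 placed genes and 455 of the 521 apart and lower genes; 27.4% of the genes in them were apart and lower, against 0.652% outside. The runs were chosen on these same values, so no test was made of them. Stretches that AIRE1 shares are not among the runs. Over blocks 1 to 10 of chromosome 11 the AIRE2 medians against NC ran from -0.435 to -0.02. Those of AIRE1 ran from -0.36 to -0.00 and those of D312A from -0.45 to -0.09. Over blocks 30 to 38 of chromosome 2 they ran from 0.25 to 0.50 in AIRE2, 0.25 to 0.40 in AIRE1 and 0.33 to 0.54 in D312A.

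Named genes lay on both sides of this division. PLAGL1, ENDOG, ITPKA, MAPK12, ELL3, HERC2, LRWD1 and POLR2M were inside the runs, 8 of the 15 listed above, while KLHL4, HAS2, TNC, CA2, HAGHL and CABCOCO1 were outside. COL21A1, apart and higher, was the first gene of the run on chromosome 6. DDC, the aromatic amino acid decarboxylase, lies on chromosome 7 and was 1.10 log2 higher than in NC, and HMOX1, heme oxygenase, lies on chromosome 22 and was 0.74 higher (adjusted p = 0.197 without the replicate number).

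D312A gave its own values for these places, set against the same NC arrays. On chromosome 7 its median difference from NC was 0.02 log2, with 4.78% of genes lower, and on chromosome 22 it was 0.00, with 8.19% lower. On chromosome 15 the median was -0.22, and 143 of 394 genes were lower than in NC (36.3%) against 7.74% of all genes. For ELL3, HERC2, ITPKA and POLR2M, all on chromosome 15, D312A differed from NC by -0.24, 0.03, -0.55 and -0.54 (adjusted p = 0.0409, 0.843, 0.00157 and 0.0039), and AIRE2 by -0.63, -0.63, -0.68 and -0.61. HERC2 lies in the first blocks, where the D312A median was near 0. In the run on chromosome 6 from COL21A1 to LATS1, D312A had 46 of 240 genes lower than NC (19.2%), and in its blocks 20 to 22 the D312A medians were -0.23, -0.20 and -0.27 beside -0.15, -0.16 and -0.31 in AIRE2. In the other run on chromosome 6, D312A had 1 of 44 genes lower, and in those on chromosome 9 it had 5 and 8 of 80 each.

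**Figure D4:**
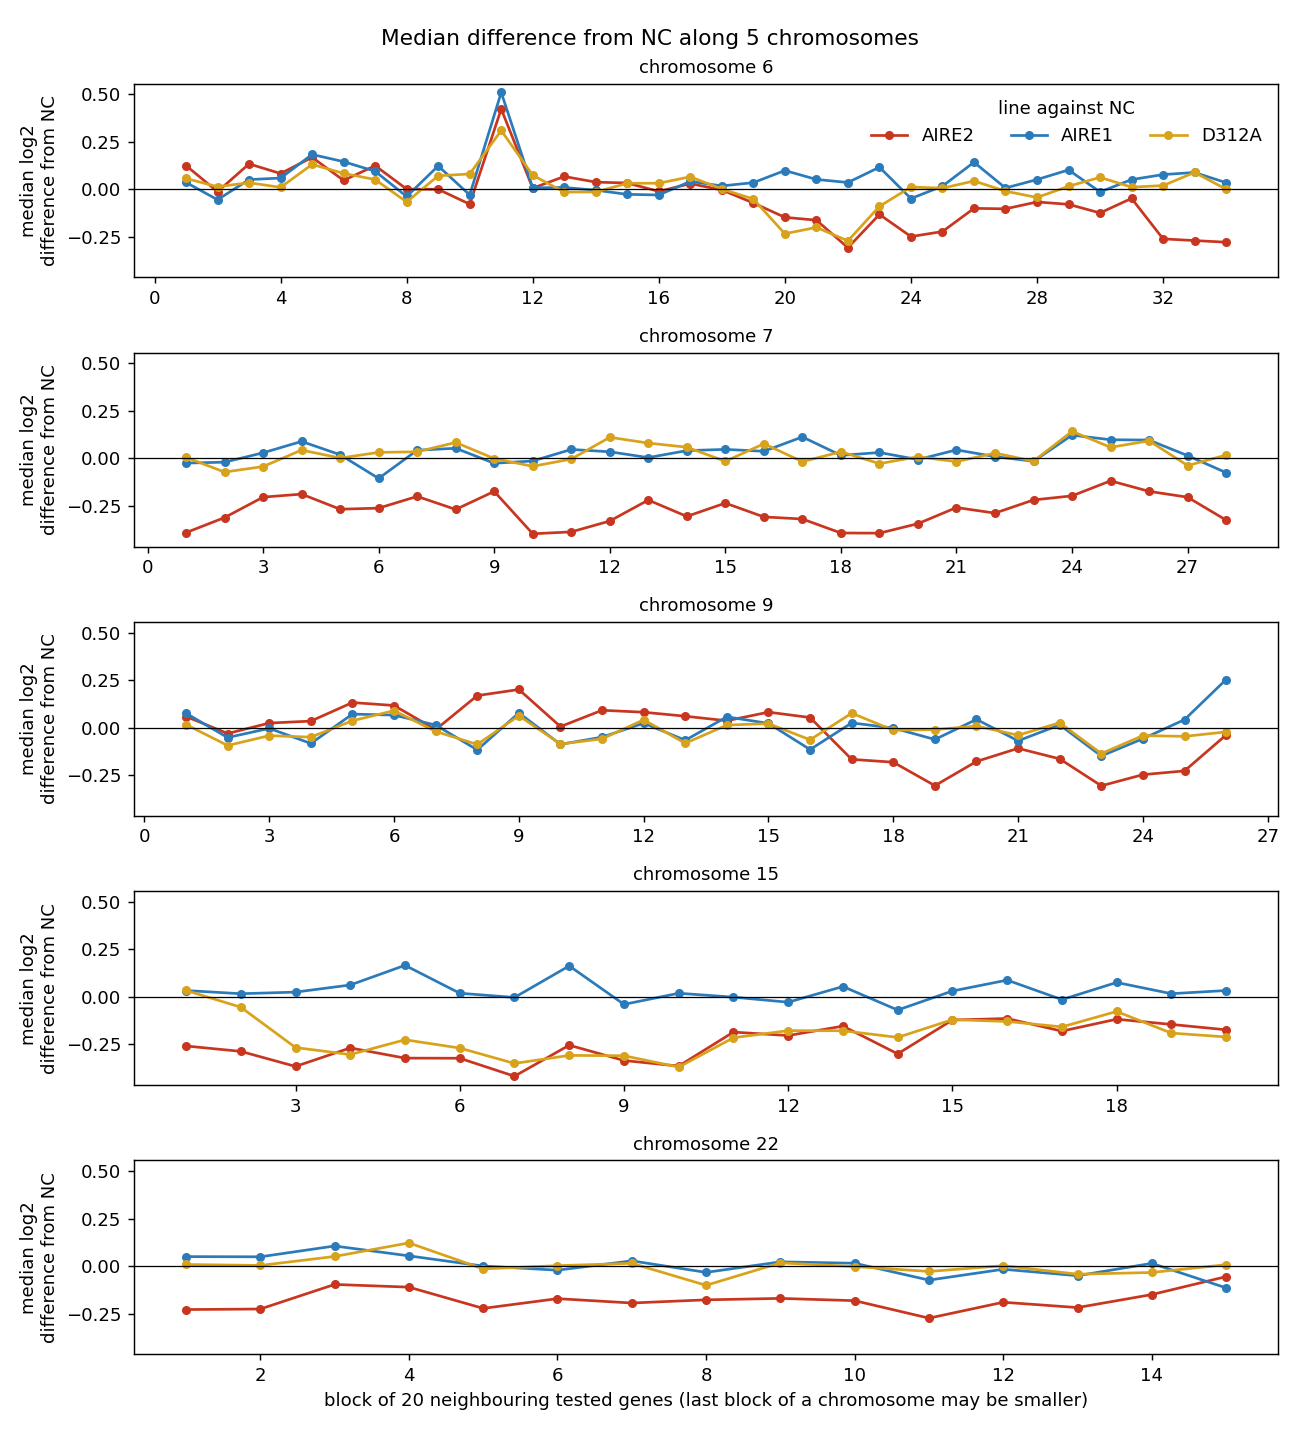
Median log2 difference from NC over blocks of 20 neighbouring tested genes along chromosomes 6, 7, 9, 15 and 22, for AIRE2 (red), AIRE1 (blue) and D312A (yellow). AIRE2 lies below 0 along chromosomes 7, 15 and 22 and at the far end of 6 and 9, while D312A follows it on most of chromosome 15 and on blocks 20 to 22 of chromosome 6 and not on chromosome 7.

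Genes called in opposite directions in the clones against NC numbered 32, of which 11 were higher in AIRE2 and lower in AIRE1 and 21 the reverse. The difference between the clones is then the sum of both differences from NC, so its call for all 32 largely follows from the choice. TNFRSF10A, a death receptor for TRAIL, stood at 6.80, 6.29 and 6.59 log2 in NC and 7.06, 7.05 and 7.01 in AIRE2, and was not detected in AIRE1, at 4.58, 4.49 and 4.45. It was 0.48 ± 0.09 higher in AIRE2 than in NC and at least 4.65-fold higher than in AIRE1 (adjusted p = 0.00307 and 8.9e-08). The 3 lines did not overlap.

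EYA1, a cofactor of kidney and ear development, stood at 7.42, 7.39 and 7.34 in NC, 6.76 to 6.998 in AIRE1 and 8.14, 7.65 and 7.88 in AIRE2. It rose by 0.51 ± 0.10 in AIRE2 and fell by 0.49 in AIRE1 (adjusted p = 0.00407 and 0.00539). PARM1, a membrane mucin-like protein, and KRT18, a keratin of simple epithelia, were each 0.67 higher in AIRE2 than in NC and lower in AIRE1, at -0.48 and -0.38. KRT18 has many pseudogenes, which its probe may read. DNAJC21, a ribosome biogenesis cochaperone, stood at 0.33 in AIRE2 and -0.56 in AIRE1 against NC. It lies on chromosome 5, where AIRE1 medians against NC were -0.60, -0.44, -0.39 and -0.29 in blocks 1 to 4 of 20 tested genes. The part of this in its opposite call was not tested.

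Lower in AIRE2 and higher in AIRE1 were IFITM3, which blocks the entry of viruses, at -0.42 and 0.49 log2 against NC, and MAP7D2, a microtubule-associated protein, at -0.53 and 0.67. The pannexin gene PANX2 stood at -0.45 and 0.45, the receptor phosphatase PTPRZ1 at -0.38 and 0.46, and the glycosyltransferase GBGT1 at -0.33 and 0.57. IFITM3 shares much of its sequence with other IFITM genes, so its probe is uncertain. Of the 21 genes in this direction, 19 lay inside the runs of lower genes described above. All 21 were apart and lower, and 455 of the 521 placed genes of that kind lay there too. The runs were chosen on medians below both NC and AIRE1, so the overlap largely follows from the choice. Opposite calls depended on the fit: without the replicate number there were 2 and 1, namely EYA1, TNFRSF10A and IFITM3, and with median centring 1 and 1. Of the 10 genes named, 6 lost the AIRE2 call against NC with median centring, MAP7D2 (adjusted p = 0.065), PANX2 (0.0802), IFITM3 (0.255), PTPRZ1 (0.372), GBGT1 (0.484) and DNAJC21 (0.0511). In the unpaired fit that call was lost for MAP7D2 (0.391), PANX2 (0.202), PTPRZ1 (0.133), GBGT1 (0.0726) and DNAJC21 (0.229), and the AIRE1 call for MAP7D2 (0.285), PANX2 (0.221), PTPRZ1 (0.0724), PARM1 (0.122) and KRT18 (0.239). Without NC replicate 1 there were 5 and 6, without NC replicate 2 there were 6 and 10, and without NC replicate 3 there were 8 and 5. Without AIRE1 replicate 1, AIRE1 replicate 3 and AIRE2 replicate 3 the second count was 9, 10 and 13, and without AIRE1 replicate 3 the first was 7. The first count exceeded the second without the replicate number, without NC replicate 3 and without AIRE1 replicate 1. MAP7D2 lost its AIRE2 call without NC replicates 1 or 2 or AIRE2 replicates 2 or 3, PANX2 without NC replicate 1, and DNAJC21 without NC replicates 1 or 2 or AIRE2 replicate 1. D312A moved with AIRE2 against NC for MAP7D2 (-1.40), IFITM3 (-0.99) and KRT18 (0.76). For PTPRZ1 (0.51) and GBGT1 (0.30) it moved with AIRE1 (limma adjusted p = 0.00251 and 0.0182, and 0.0752 and 0.155 without the replicate number). For EYA1, PARM1, TNFRSF10A, PANX2 and DNAJC21 it was not called against NC.

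**Figure D5:**
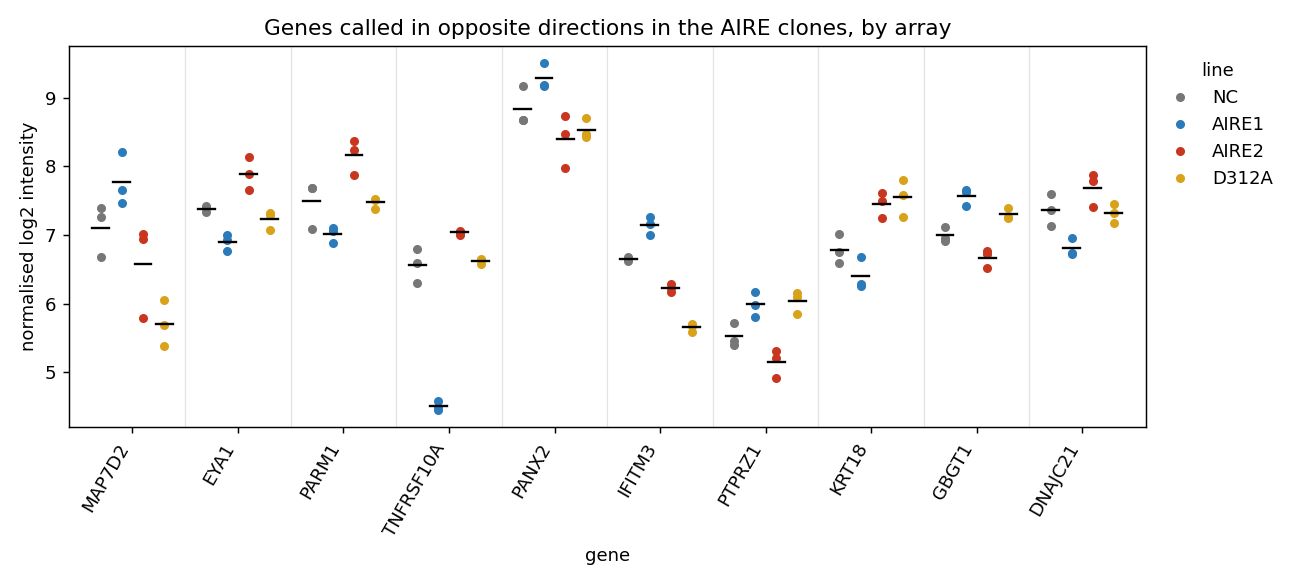
Normalised log2 intensity on each array (dots, 3 per line) and line mean (bar) for the 10 genes with the largest opposite changes in AIRE2 and AIRE1 against NC. TNFRSF10A lies at 4.45 to 4.58 in AIRE1 and at 7.01 to 7.06 in AIRE2, with NC between them.

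Other genes moved in the same direction in both clones but by different amounts. TNFRSF14, a receptor of the lymphotoxin-related ligand LIGHT, stood at 4.79, 4.37 and 4.96 log2 in NC, 5.61, 4.76 and 5.69 in AIRE2 and 6.89, 6.55 and 6.83 in AIRE1. It was 1.40 ± 0.12 lower in AIRE2 than in AIRE1 (difference -1.40, adjusted p = 5.59e-05), and its AIRE2 and NC arrays overlapped. HTATIP2, an oxidoreductase, KCTD8, an auxiliary subunit of GABA-B receptors, FAM111A, a protease that restricts viruses, and the cadherin gene CDH10 also rose less in AIRE2. Their differences from AIRE1 were -1.40, -1.29, -1.16 and -1.10. AIRE2 exceeded NC by 0.43 for HTATIP2 and 0.74 for KCTD8, and at least 1.03-fold for FAM111A, which like CDH10 was not detected in NC. CSRP1, CD44, EPCAM, CHST13 and HAS2 lay further from NC in AIRE2; AIRE1 differed from NC by 0.73, 0.53, 1.02, 0.50 and -0.43. Of these, CSRP1, CD44, CHST13 and HAS2 were not called in AIRE1 without the replicate number (adjusted p = 0.108, 0.195, 0.109 and 0.0662). The call for HTATIP2 against NC was also lost without NC replicate 2, NC replicate 3 or AIRE2 replicate 1. Without the replicate number TNFRSF14 and HTATIP2 were not called against NC in AIRE2 (adjusted p = 0.114 and 0.0947), which left EPCAM, KCTD8, FAM111A and CDH10 called in both clones.

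Among the 5 largest increases over NC, LPL and LCN15 were not called between the clones. The lipase gene LPL was 3.01 log2 higher than in NC and 0.04 ± 0.17 above AIRE1 (adjusted p = 0.907), and the lipocalin gene LCN15 2.98 higher and 0.37 ± 0.15 above AIRE1 (adjusted p = 0.123). HSPB8, a small heat shock protein, was 3.13 higher than in NC and 0.70 ± 0.21 above AIRE1 (adjusted p = 0.0461), a difference not called without the replicate number (adjusted p = 0.527). NEFM, the lowest gene against NC at -3.14, was 0.53 ± 0.12 above AIRE1 (adjusted p = 0.0134), and also without the call in that fit (adjusted p = 0.0979). CRACR2B, which regulates store-operated calcium entry, stood at -1.90 and differed by -0.12 from AIRE1 (adjusted p = 0.655).

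Lists of genes were counted in AIRE2 next, beside the 14.2% of all genes that were higher and 12.5% lower than in NC and an all-gene median of -0.00 log2. Against AIRE1 these shares were 5.84% and 7.49%. Without the replicate number, 709 of all 11947 genes were higher and 421 lower than in NC, and 122 higher and 153 lower than in AIRE1. These are the measure for the unpaired list counts. Most of the interferon response and antigen presentation genes tested rose against NC. Of 28 tested interferon response genes, 18 were higher, 3 lower and 7 not called, with a median of 0.54 log2, or 0.48 with the 6 members undetected in NC at their lower bound. Against AIRE1 the median was 0.01, and 2 were higher (7.14%) and 3 lower (10.7%), or 0 and 1 without the replicate number. IFIH1, which senses double-stranded RNA of viruses, was at least 4.14-fold higher than in NC and 0.10 ± 0.10 log2 above AIRE1 (adjusted p = 0.555), and OAS3, which makes the activator of RNase L, at least 4.33-fold and 0.21 ± 0.10 (adjusted p = 0.218). IFIT2, an inhibitor of viral translation, was apart and higher with IFI16, at least 1.58-fold over NC and 0.36 log2 over AIRE1. IFITM1 was apart and lower with IFITM3, at -0.91 and -0.47. Both lie on chromosome 11, whose blocks 1 to 10 had AIRE2 medians below 0 against NC, and any part of this was not tested. Without the replicate number IFIT2 and IFITM1 were not called against AIRE1 (adjusted p = 0.109 and 0.597), nor IFITM1 against NC (0.0929), and 13 list members were higher and 2 lower than in NC.

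Promoters of interferon response genes are shown because most of the list rose together. RefSeq promoters were matched for 25 of the 28 genes. The letters GAAANNGAA, the core of the element bound by interferon-activated factors, were searched on both strands. They occurred in 13 of the 17 promoters of genes higher than in NC (76.5%), in 5 of the other 8 (62.5%) and in 6.13% of the 9593 promoters of tested genes. IFI16 had no match in this window. In OAS3 and IFIH1 the matches are in capitals.
OAS3 (chr12:112938224-112938523, plus strand): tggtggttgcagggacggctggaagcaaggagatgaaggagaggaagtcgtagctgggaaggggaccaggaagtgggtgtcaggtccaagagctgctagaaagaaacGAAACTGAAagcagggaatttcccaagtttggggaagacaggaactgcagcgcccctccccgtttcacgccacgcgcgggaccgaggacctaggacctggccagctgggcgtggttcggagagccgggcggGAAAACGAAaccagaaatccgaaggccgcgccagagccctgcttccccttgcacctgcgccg
IFIH1 (chr2:162318635-162318934, minus strand): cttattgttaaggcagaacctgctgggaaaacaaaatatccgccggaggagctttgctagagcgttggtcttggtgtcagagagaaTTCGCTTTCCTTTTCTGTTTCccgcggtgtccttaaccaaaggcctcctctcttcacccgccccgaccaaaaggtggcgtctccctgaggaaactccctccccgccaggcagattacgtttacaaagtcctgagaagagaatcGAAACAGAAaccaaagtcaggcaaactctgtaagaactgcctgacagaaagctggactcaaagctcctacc
A match is a string of letters and was not tested as a binding site.

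Of 20 antigen presentation genes, 15 were higher than in NC and 1 lower (7 and 0 without the replicate number), with a median of 0.48. Against AIRE1, 1 was higher and 2 lower (0 and 0). HLA-DMA, which loads peptides on class II molecules, was apart, 1.17 ± 0.11 log2 over NC and 0.71 ± 0.11 over AIRE1 (adjusted p = 1.63e-05 and 0.00189), the latter not called without the replicate number (adjusted p = 0.299). ERAP2, which trims peptides for class I, HLA-DRB1, HLA-DPA1 and HLA-DMB rose by 0.76 to 1.23 log2, HLA-DQA1 rose at least 1.49-fold, and these did not pass the test against AIRE1. HLA class II genes are alike in sequence, so single genes are uncertain; HLA-DPA1 was not called against NC without the replicate number (adjusted p = 0.0989).

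Of 23 TNF receptor, NF-kappaB and cytokine genes, 6 were higher and 1 lower than in NC, and 7 were higher (30.4%) and 4 lower (17.4%) than in AIRE1. Besides TNFRSF10A, the TWEAK receptor TNFRSF12A (0.32 over NC, 0.54 over AIRE1) and the chemokine CX3CL1 (at least 1.15-fold over NC, 0.35 log2 over AIRE1) were apart and higher. The NF-kappaB inhibitor TNFAIP3 was apart and lower at -0.22 and -0.28. IL15, a growth factor of lymphocytes, was 1.14 over NC and -0.63 against AIRE1 (adjusted p = 0.00351). Without the replicate number 4 and 0 of the list were called against NC and 3 and 0 against AIRE1. TNFRSF12A, CX3CL1, TNFAIP3 and IL15 were then not called against AIRE1 (adjusted p = 0.0579, 0.102, 0.157 and 0.0683), nor TNFRSF12A and TNFAIP3 against NC (0.164 and 0.165).

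Epithelial genes held 5 of the apart genes. Of 25 tested, 10 were higher and 2 lower than in NC, with a median of 0.21 (10 and 0 without the replicate number). Against AIRE1, 7 were higher and 1 lower (3 and 0). Besides EPCAM, KRT18 and LAMB3, the protease inhibitor SPINT2 was 1.76 ± 0.09 over NC and 0.39 ± 0.09 over AIRE1, and PROM1, a protein of membrane protrusions, at least 1.80-fold over NC and 0.64 ± 0.16 log2 over AIRE1. SPINT2 and PROM1 were not called against AIRE1 without the replicate number (adjusted p = 0.543 and 0.119). The tight junction gene CLDN1, the trafficking gene RAB25 and MAL2 rose by at least 3.75-fold, by at least 2.38-fold and by 2.68 log2 and differed from AIRE1 by -0.32, -0.13 and 0.07 (adjusted p = 0.199, 0.757 and 0.67).

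Of 28 mesenchymal and matrix genes, 8 were higher and 8 lower than in NC (5 and 3 without the replicate number), with a median of 0.03, or -0.01 with the 2 members undetected in NC at their lower bound. SNAI2, a repressor of epithelial genes, was apart and lower with TNC, at -1.31 ± 0.07 against NC and -0.37 ± 0.07 against AIRE1 (adjusted p = 2.17e-07 and 0.00588). The homeobox gene PRRX1 and the matricellular gene CCN1 were apart and higher, by 1.29 and 0.50 and by 0.44 and 0.42. SNAI2, PRRX1 and CCN1 were not called against AIRE1 without the replicate number (adjusted p = 0.324, 0.0866 and 0.124). The matrix gene THBS2 rose by 2.72 and differed from AIRE1 by 0.32 (adjusted p = 0.201).

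Of 24 HOX genes, which set position along the body axis, 13 were lower than in NC, 0 higher and 11 not called (8 lower and 0 higher without the replicate number), with a median of -0.33. HOXB2 alone was apart, at -0.42 ± 0.09 against NC and -0.44 ± 0.09 against AIRE1 (adjusted p = 0.0045 and 0.00803; against AIRE1 0.0733 without the replicate number). HOXB8 was the lowest at -1.13, and -0.04 against AIRE1 (adjusted p = 0.857). HOXA2 lies on chromosome 7 and stood at -0.54 (adjusted p = 0.12 against NC without the replicate number). Of 15 genes of kidney development, 4 were higher and 5 lower (2 and 3 without the replicate number). EYA1 and HAS2 were the ones apart, of which HAS2 is a hyaluronan synthase and no regulator of kidney development. The nephron regulators LHX1 (-0.98), SIX2 (-0.41) and WT1 (-0.40) fell and did not pass the test against AIRE1. WT1 was not called against NC without the replicate number (adjusted p = 0.391). FOXD1, another kidney regulator, rose by 0.55, 0.16 and 0.48 over NC in replicates 1 to 3. Of 18 neuronal genes, 8 were higher and 2 lower than in NC (5 and 1); INA, an intermediate filament, and TUBB3, a neuronal tubulin, were apart, by 1.25 and 0.41 and by 0.63 and 0.33, and neither was called against AIRE1 without the replicate number (adjusted p = 0.299 and 0.59), nor TUBB3 against NC (0.0896).

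Tissue antigens, the genes AIRE is known for, mostly did not pass the detection filter. Of 41 thymic and autoimmune antigens on the array 12 were tested, and 3 were higher and 1 lower than in NC (3 and 0 without the replicate number). The neutrophil protein gene S100A8 was apart, at least 1.56-fold over NC and 0.47 ± 0.10 log2 over AIRE1 (adjusted p = 1.22e-05 and 0.00985; against AIRE1 0.0991 without the replicate number), and the bone protein gene SPP1 was at least 1.17-fold over NC. Of 38 cancer-testis and germ cell genes on the array 8 were tested, and 5 were higher and 0 lower. TKTL1, TEX14, MAGEH1 and PRAME rose by 0.37 to 2.46 log2 and SPANXC at least 1.17-fold, and these 5 did not pass the test against AIRE1 (adjusted p = 0.439 to 0.971). SPANXC belongs to a family of near-identical genes.

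Cell cycle genes apart from both lines lay largely on the chromosomes described above. Of 34 tested, 6 were higher and 6 lower than in NC, with a median of -0.05, and 2 and 2 without the replicate number. Of the 4 apart and lower, CDK6, a G1 kinase (-0.60 ± 0.07 against NC), and MCM7, a replication helicase subunit (-0.31 ± 0.07), lie on chromosome 7, and the mitotic genes BUB1B (-0.30 ± 0.08) and CCNB2 (-0.22 ± 0.07) on chromosome 15. CCNB1, cyclin B1, on chromosome 5, was apart and higher by 0.26 ± 0.08. When arrays were not paired, CDK6, MCM7, BUB1B and CCNB1 were not called against AIRE1 (adjusted p = 0.121, 0.0646, 0.167 and 0.258), nor BUB1B, CCNB1 and CCNB2 against NC (0.062, 0.222 and 0.141). The CDK inhibitor CDKN1B rose by 0.68 and did not pass the test against AIRE1 (adjusted p = 0.381).

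Some genes of the stress lists rose. Of 28 genes of the unfolded protein and integrated stress responses, 7 were higher and 0 lower than in NC (1 and 0 without the replicate number), with a median of 0.12. The chaperones HYOU1 (0.70) and HSP90B1 (0.42) of the endoplasmic reticulum and the serine synthesis gene PSAT1 (0.32) were apart, by 0.37, 0.30 and 0.28 over AIRE1, none of them called in that contrast without the replicate number (adjusted p = 0.629, 0.7 and 0.264) nor against NC (0.129, 0.363 and 0.0951). Of 20 heat shock genes, 4 were higher and 0 lower (1 and 0), with HSPB8 apart. Of 25 NRF2 and xenobiotic genes, 6 were higher and 4 lower (3 and 0). HMOX1 was apart and higher and GSTK1, a glutathione transferase on chromosome 7, apart and lower, at -0.30 and -0.39. ALDH1A1, a retinaldehyde dehydrogenase, was at least 1.90-fold over NC and -1.08 ± 0.21 log2 against AIRE1 (adjusted p = 0.00642). In the fit without the replicate number HMOX1, GSTK1 and ALDH1A1 were not called against AIRE1 (adjusted p = 0.63, 0.164 and 0.0949), nor HMOX1 and GSTK1 against NC (both 0.197).

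Signalling lists were mixed. Of 27 WNT genes, 4 were higher and 8 lower than in NC (3 and 4 without the replicate number); ZNRF3, on chromosome 22, which removes WNT receptors from the surface, was apart and lower at -0.70 and -0.47. Cyclin D1 (CCND1) was at -0.86 against NC and 0.36 ± 0.09 above AIRE1 (adjusted p = 0.0216). Of 26 TGF-beta and BMP genes, 6 were higher and 5 lower (3 and 3). Against AIRE1, 7 were higher and 1 lower (0 and 1). FST, which binds activin, was apart and higher, at least 1.84-fold over NC and 0.66 ± 0.14 log2 over AIRE1 (adjusted p = 0.011). ID2, an inhibitor of helix-loop-helix factors, was at -1.22 against NC and 0.53 above AIRE1 (adjusted p = 0.0188). Of 17 ERK feedback and immediate early genes, 3 were higher and 4 lower (1 and 4). JUN (0.47 and 0.51) and the ERK inhibitor SPRY2 (0.29 and 0.26) were apart and higher, and SPRED1, another ERK inhibitor, on chromosome 15, apart and lower (-0.72 and -0.36). In the fit without pairing ZNRF3, CCND1, FST, ID2, JUN, SPRY2 and SPRED1 were not called against AIRE1 (adjusted p = 0.115, 0.152, 0.0759, 0.637, 0.239, 0.311 and 0.493), nor ID2, JUN and SPRY2 against NC (0.0677, 0.171 and 0.134).

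In the remaining lists, lipid genes were higher than in NC at 24.1%, and solute transporters and cholesterol genes lower at 19.2% and 17.6%, above the shares of all genes; the other shares ran from 5.71% to 15.4%. Of 35 genes of AIRE partners and chromatin, 5 were higher and 2 lower than in NC (2 and 1 without the replicate number), with AIRE itself among the 5 and with KMT2A, an H3K4 methyltransferase, and XRCC5, the Ku80 subunit of DNA repair, apart by 0.32 and 0.47; neither was called against AIRE1 without it (adjusted p = 0.283 and 0.194), nor KMT2A against NC (0.195). Of 31 glycolysis and hypoxia genes, 2 were higher and 2 lower, of 17 cholesterol genes 1 and 3 (1 and 0 without the replicate number), and of 26 solute transporters 4 and 5 (2 and 1). None of these 3 lists held a gene apart in either direction. Counting single contrasts with AIRE1, they had 4 higher and 1 lower. Without the replicate number only 1 was called there, a solute transporter lower in AIRE2. Of 29 lipid genes, 7 were higher and 3 lower (4 and 0). ACOT1 and ACOT2, acyl-CoA thioesterases of near-identical sequence that their probes may not separate, were apart and higher by 2.68 and 0.59 and by at least 2.98-fold and 0.64. AGPAT2, of glycerolipid synthesis, on chromosome 9, was apart and lower at -0.27 and -0.35. ACOT1 and AGPAT2 were not called against AIRE1 without the replicate number (adjusted p = 0.0742 and 0.123), nor AGPAT2 against NC (0.158).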

How the data were processed

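Total RNA of 4 HEK293 lines was hybridised to Illumina bead arrays, 3 arrays a line, after Trizol extraction and DNase treatment, per the labels' protocols. The deposited array files give 1 intensity and 1 detection p-value for each of 48701 probes, per the file headers. The submitters' processing notes name BeadStudio 3.1.3.0 and no role for it. The deposited intensities are linear, all above 0, and their distributions differ between arrays. From these files the intensities were corrected with limma 3.58.1 (R 4.3.3) by normexp with an offset of 16, quantile-normalised and put on a log2 scale. The log2 values are thus not the authors' own, and the authors' deposited value table, with 1 intensity per line, was used for direction only. Folds written "at least" set the brighter line against, on each array of a line without detection, the lowest signal among detected probes or the probe's own where that was higher. A probe was kept where its detection p was under 0.01 on all 3 arrays of a line, and the brightest probe stood for a gene, which left 11947 genes.

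Symbols came from the platform annotation, updated by gene ID to RefSeq of GRCh38.p14; 24782 probes had 1 symbol, 0 had several, 23919 had none, and 24154 were matched. Promoters are RefSeq sequence of the same build. The fit (lmFit and eBayes) had a term for each line and for the replicate number, with all 12 arrays and 6 residual degrees of freedom, and p-values were adjusted over all genes by Benjamini-Hochberg and called under 0.05. Arrays were paired because the design speaks of independent experiments. Replicate numbers were read from the array file names, and a number was assumed to mark the same experiment in every line. Same-numbered arrays deviated together from their line means (r = 0.33 to 0.85 over 18 pairs), at 0.74 to 0.85 for replicate 2 and 0.33 to 0.61 for replicate 1. Differently numbered ones gave -0.74 to 0.53 over 36. Deviations from a mean of 3 arrays sum to 0, so low values between different numbers are partly built in. AIRE2 replicate 1 was less distinct: its r with replicate 3 of NC, AIRE1 and D312A was 0.53, 0.49 and 0.44, against 0.61, 0.40 and 0.33 with replicate 1.

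1 column of per-sample values was not used: the detection p of D312A replicate 3 equalled that of AIRE1 replicate 3 in 100% of probes. Its detection limit was predicted from intensity, a method that gave 98.86 to 99.93% equal calls on other arrays. On simulated data of 11947 genes, 100 genes were changed by 0.5 log2 and 100 by 1 log2, in AIRE2 alone, with a replicate effect built in. Between AIRE2 and NC 64% and 94% of these were called, and 19% and 85% without the replicate number. Apart from both lines were 59% and 94%. Among unchanged genes, 11 were called against NC and 2 apart with the replicate number, and 0 and 0 without it. The simulated replicate effect and spread came from the paired fit, so its larger shares are partly built in. Far more genes were called in the real arrays, so these shares need not hold there. Genes were named by rule: the 15 largest differences in each direction among genes apart from both lines, the 10 largest among opposite calls and among calls of unequal size, the 5 highest and lowest against NC, and list members called or apart. Members and lists were chosen with earlier results of these data known. The number of arrays limits the precision. Alternatives were another background correction, normalisation, probe choice, filter and model, and arrays left out in turn.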

Additional observations from a re-analysis of the deposited data

Results flagged for a closer look

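The 10 genes named above for opposite changes stand out because AIRE2 and AIRE1 moved in opposite directions against the same NC arrays. The difference between the clones is the sum of both, so its call in each of them largely follows from how the genes were chosen. Higher in AIRE2 than in AIRE1 were TNFRSF10A by 2.53 log2, PARM1 by 1.15, KRT18 by 1.04, EYA1 by 0.996 and DNAJC21 by 0.883. Lower in AIRE2 were MAP7D2 at -1.20, IFITM3 at -0.915, GBGT1 at -0.895, PANX2 at -0.891 and PTPRZ1 at -0.843. Against NC, D312A was called in the AIRE2 direction for MAP7D2, IFITM3 and KRT18 and in the AIRE1 direction for PTPRZ1 and GBGT1. MAP7D2 was not called between the clones without the replicate number (adjusted p = 0.0882), and its AIRE2 arrays overlapped those of NC, as did those of PANX2 and DNAJC21. With median centring 6 of the 10, MAP7D2, PANX2, IFITM3, PTPRZ1, GBGT1 and DNAJC21, lost the AIRE2 call against NC, and MAP7D2, PANX2 and DNAJC21 also lost it when single arrays were left out.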

How the results depend on the processing

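Counts of calls depended on the pairing and the normalisation. Without the replicate number as a block, the counts were 709 higher and 421 lower against NC, 122 and 153 against AIRE1, 58 and 74 apart from both, and 2 and 1 opposite between the clones. With median centring they were 1218 and 339, 205 and 461, 94 and 103, and 1 and 1. With only the lines compared in the fit, 12 genes were lower in AIRE2 and higher in AIRE1, and with only the 6 arrays compared, 319 and 394 genes were called against AIRE1. With the second replicate of every line left out, 10 genes were lower in AIRE2 and higher in AIRE1. Leaving out 1 array at a time gave 1232 to 1764 genes higher and 924 to 1449 lower against NC, 297 to 783 and 454 to 869 against AIRE1, 134 to 375 and 288 to 527 apart, and 5 to 15 and 5 to 22 opposite. The arrays whose loss moved a count most were NC replicates 1 and 3 (924 and 988 lower against NC) and, against AIRE1, AIRE1 replicate 1 (297 and 454), AIRE1 replicate 3 (377 and 507) and AIRE2 replicate 3 (427 and 585), with 564 lower without AIRE1 replicate 2. The order of the higher and lower counts turned for opposite calls without the replicate number, without NC replicate 3 (8 and 5) and without AIRE1 replicate 1 (11 and 9), and for AIRE2 against AIRE1 with the second replicates left out (697 and 691). In the authors' value table no called difference was reversed among the 356 differences of named genes, and the direction of uncalled ones was not checked. Relative to the other chromosomes, the medians of chromosomes 7, 15 and 22 against NC stayed within -0.33 to -0.23, -0.29 to -0.21 and -0.26 to -0.15 under 4 kinds of alternative chosen after seeing the data. The share of placed apart and lower genes on these chromosomes was 62.4% to 74.8% over all settings run for it, a recount also chosen after seeing the data. Probes near background limit what a bound can show.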
